A study of Homo sapiens with 10 samples.

Results

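Molecular chaperones bind unfolded or partly folded proteins and, with the energy of ATP, help them to fold, to cross membranes or to be handed over for degradation. The chaperone genes were taken by symbol, provided that the mean level over all 10 samples was at least 0.5 FPKM. Symbols starting with HSP90, HSPA, HSPH, HSPD, HSPE or HSPB stood for the Hsp90, Hsp70, Hsp110, Hsp60, Hsp10 and small heat shock protein groups. Added to these were the J-domain proteins (DNAJA, DNAJB and DNAJC genes, the co-chaperones that stimulate Hsp70 ATPase activity). The last were the subunits of the cytosolic chaperonin TRiC (TCP1 and the CCT genes). Genes of these families with other symbols, such as TRAP1, were left out. The symbols also took in 1 cofactor and 2 genes that are not chaperones. FPKM is the number of RNA fragments per kilobase of transcript and of library size. Of the 23284 genes listed, 100 had such a symbol, 74 of these reached the minimum, and 12788 genes in all did so and were tested. The other 26 were not tested, and 3 of them were listed at 0 in every sample. The genes closest below the minimum were HSP90AA6P (mean 0.281 FPKM) and DNAJB5 (0.283 FPKM), and those closest above it were DNAJC15 (0.536 FPKM) and HSPA6 (0.57 FPKM).

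The levels came from RNA-seq of K562, an established line derived from a chronic myeloid leukaemia with erythroid features. All samples were cultures of this single line, taken after 48 h with the DMSO vehicle, with CBP30 at 2 or 5 µM, or with I-CBP112 at 2 or 5 µM, and each of the 5 groups had 2 biological replicates. Both compounds bind the bromodomain, the acetyl-lysine reading module, of the coactivators CREBBP (CBP) and EP300. The question behind the design was what blocking this module does to gene expression, and here it is asked of the chaperones. Erythroid genes were present in the DMSO samples (GATA1 170 and 171 FPKM, HBG2 442 and 435 FPKM, TFRC 154 and 162 FPKM), whereas the B-cell gene MS4A1 was listed at 0 throughout. EPCAM, listed here as an epithelial marker that should be missing, was not missing (59.7 and 58.6 FPKM with DMSO), while CD3E, COL1A1 and PECAM1 were at or under 3.31 FPKM in every sample. GATA1 and HBG2 were themselves lower with CBP30 at 5 µM (52.7 to 53.5 and 122 to 135 FPKM). Some markers of other cell types moved too: between DMSO and CBP30 at 5 µM, CD3E went from 1.04 and 1.16 to 3.15 and 3.31 FPKM, COL1A1 from 0.52 and 0.442 to 1.81 and 2.02 FPKM and EPCAM to 31.8 and 33.0 FPKM. Their part in the results was not tested.

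Members were placed by the compartment in which their products are known to work: 35 in the cytosol or shuttling from it, 13 in the endoplasmic reticulum (ER), 8 in mitochondria, 13 elsewhere or not settled, and 5 pseudogenes. The cytosolic Hsp70 and Hsp90 machines fold newly made proteins and signalling kinases, and their stress-inducible forms are turned on by heat shock factors. ER chaperones serve secreted and membrane proteins and are raised by the unfolded protein response. Mitochondrial chaperones pull proteins through the inner membrane and fold them in the matrix, and proliferating leukaemia cells as a rule express the housekeeping forms at high levels. In K562 the 74 genes made up 1.23 to 1.31% of the summed FPKM of a sample. No member was listed at 0 in any sample, and the values ran from 0.235 FPKM (HSPA6 with CBP30 at 5 µM) to 1346 FPKM (HSP90AB1 with CBP30 at 2 µM).

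Some of the promoters are shown first, because the compartments differ in known control sequences and because the results below turn on these genes. The 250 bases before the RefSeq start (build GRCh38.p14, while the expression files use hg19) were searched on both strands for 63 members found in the promoter table. A pair of blocks of the heat shock element, GAANNTTC, occurred in 10 members, all cytosolic (15.9% of members, against 5.85% of 27305 promoters and 3.98% of 8650 promoters of tested genes). The longer form, in which GAA follows this pair after 2 bases, and which thus contains the shorter one, occurred in 3 members, HSPA8, HSPA6 and DNAJB6 (4.76%, against 0.439% of all promoters and 0.335% of those of tested genes). The ER stress element, CCAAT and CCACG with 9 bases between them, occurred in HSPA5 and HSP90B1 (3.17%, against 0.0806% of all promoters and 0.15% of those of tested genes). The E-box CACGTG occurred in 9 members (14.3%, against 6.49% of all promoters and 9.14% of those of tested genes), among them HSPA9, HSPD1 and HSPE1 of the 8 mitochondrial genes. The unfolded protein response element, TGACG directly followed by TGG, occurred in DNAJC10 alone (1.59%, against 0.667% of all promoters and 0.786% of those of tested genes), and the GATA motif AGATAA in DNAJC2 and HSPA5 (3.17%, against 9.37% of all promoters and 4.52% of those of tested genes). HSPD1 and HSPE1 lie head to head, with 104 bases between their starts, so that a single E-box counts for both. HSPA1L (chr6:31777396-31783060, minus strand, hg19) and HSPA1A (chr6:31783320-31785723, plus strand) are also head to head. A single pair of heat shock blocks probably counts for both of them, and HSPA1B is a nearly identical copy of HSPA1A. The 15.9% therefore includes related promoters. The starts used for HSPA8, HSPA9 and HSP90AA1 directly follow bases inside a RefSeq gene span, which for HSPA8 is its own. Their windows are not printed, but HSPA8 is counted for the heat shock element and HSPA9 for the E-box. These matches are descriptions of letters and not of bound sites. The lines below give the ER pair with the stress element in capitals, the stretch between HSPE1 and HSPD1 with the E-box in capitals, and HSPA1A with the heat shock block in capitals, each 5′ to 3′ on the strand of the named gene and ending just before its start, in the order HSPA5 (chr9:125241344-125241593, minus strand), HSP90B1 (chr12:103930212-103930409, plus strand), HSPE1 (chr2:197500275-197500378, plus strand) and HSPA1A (chr6:31815293-31815542, plus strand).
HSPA5: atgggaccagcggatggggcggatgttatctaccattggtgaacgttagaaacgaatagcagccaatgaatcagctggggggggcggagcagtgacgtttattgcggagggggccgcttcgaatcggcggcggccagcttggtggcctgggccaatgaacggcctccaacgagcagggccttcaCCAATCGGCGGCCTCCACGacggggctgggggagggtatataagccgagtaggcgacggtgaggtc
HSP90B1: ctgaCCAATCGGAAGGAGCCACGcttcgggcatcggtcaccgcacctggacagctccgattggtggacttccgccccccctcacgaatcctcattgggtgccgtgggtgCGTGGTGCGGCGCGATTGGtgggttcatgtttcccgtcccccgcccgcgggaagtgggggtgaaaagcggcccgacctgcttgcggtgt
HSPE1: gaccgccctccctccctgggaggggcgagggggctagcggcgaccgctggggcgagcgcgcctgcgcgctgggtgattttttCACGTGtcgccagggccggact
HSPA1A: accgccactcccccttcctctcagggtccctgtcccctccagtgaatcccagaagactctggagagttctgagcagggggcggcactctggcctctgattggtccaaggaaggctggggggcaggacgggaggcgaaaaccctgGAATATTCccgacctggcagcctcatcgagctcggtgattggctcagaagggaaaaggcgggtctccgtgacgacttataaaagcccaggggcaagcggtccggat

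**Figure D1:**
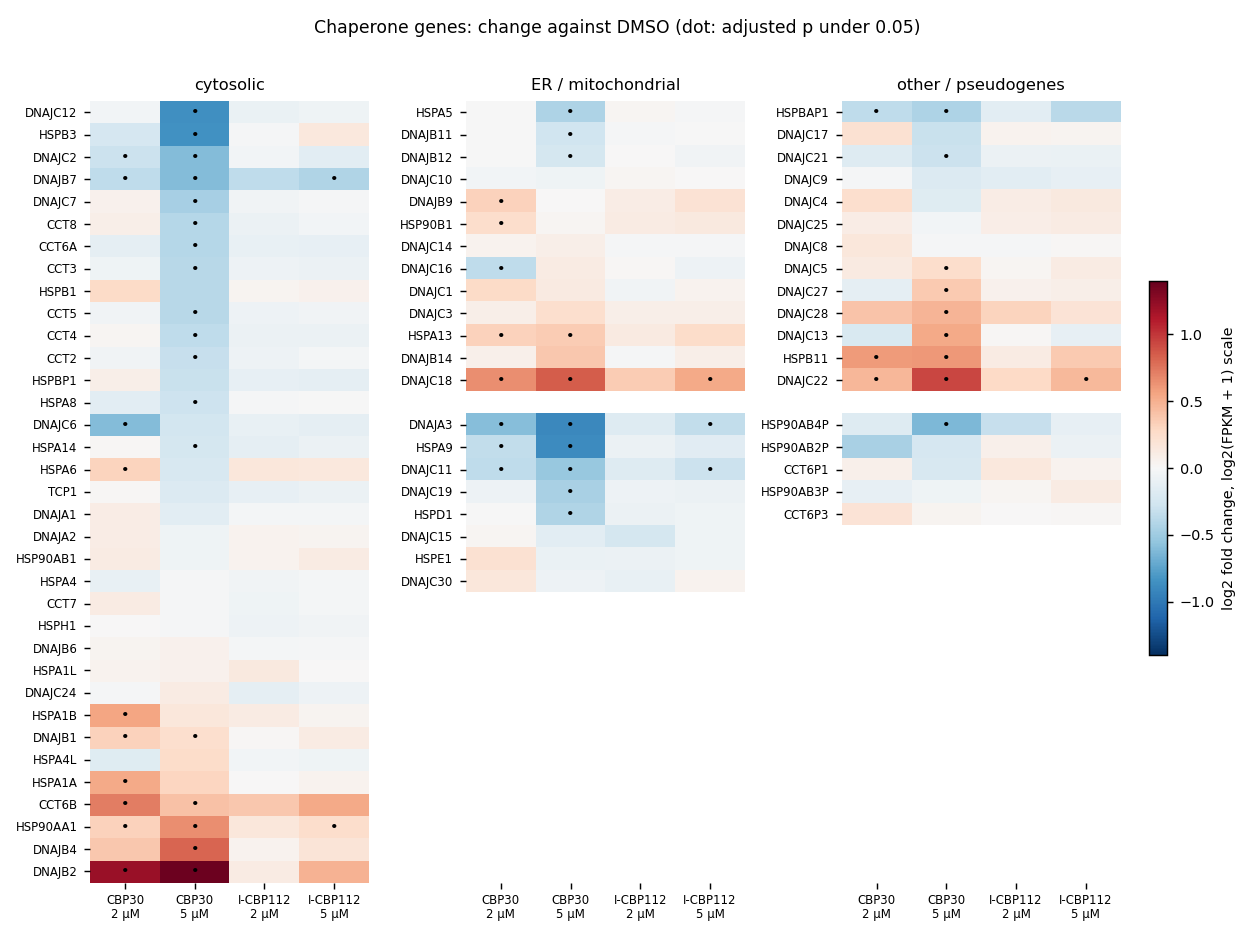
Change of each of the 74 chaperone genes against DMSO, as a colour on the log2(FPKM + 1) scale (blue lower, red higher), for the 4 treatments in columns, with genes grouped by compartment and ordered by the change with CBP30 at 5 µM. A dot marks an adjusted p under 0.05, which 37 genes reached with CBP30 at 5 µM (24 lower, 13 higher) and none with I-CBP112 at 2 µM.

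With CBP30 at 5 µM, 24 of the 74 chaperone genes were lower than with DMSO and 13 were higher (limma, Benjamini-Hochberg adjusted p under 0.05). That is 32.4% lower and 17.6% higher, beside 25.4% lower and 21.2% higher among all genes tested. In either direction 46.6% of all genes were called. Counting only whether both treated samples lay outside both DMSO samples, 40 members were below and 22 above, beside 42.6% and 39.5% of all genes. Because 1 was added to each FPKM value before the log2 was taken, differences of genes at a few FPKM come out too small. The compartments were unequal: 5 of 8 mitochondrial genes were lower and 0 higher (median log2 difference -0.43), 13 of 35 cytosolic genes were lower and 5 higher (median -0.19), and 3 of 13 ER genes were lower and 2 higher (median 0.079), beside a median of -0.0096 over all genes. The count of higher members was the less stable one, with 6 and 8 on leaving out the first or second DMSO sample and 7 and 8 on leaving out the first or second 5 µM CBP30 sample, whereas the lower count ran from 22 to 32. Summed FPKM of the mitochondrial members was 1237 and 1276 with DMSO and 878 and 901 with CBP30 at 5 µM, which is 70.8% of the DMSO mean, whereas the ER sum stayed at 97.8% (660 and 684 against 654 and 661). In bulk RNA, fewer cells of a kind and less RNA per cell cannot be told apart.

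Level moved with these counts. Of the 21 members at 100 FPKM or more with DMSO, 11 were lower and 1 was higher (median log2 difference -0.32). Among all 900 tested genes at that level 379 were lower and 94 higher (42.1% and 10.4%, median -0.22). The summed FPKM of all genes was also smaller in these samples (547504 and 551586, against 611234 and 614878 with DMSO), and the members' share of that sum was 1.24 and 1.26%, beside 1.26 and 1.31% with DMSO. With quantile normalization the medians were -0.10 (cytosolic), 0.14 (ER) and -0.33 (mitochondrial), and the mitochondrial count stayed 5 lower and 0 higher. After removal of the trend with transcript length the medians were -0.092 (cytosolic), 0.09 (ER) and -0.34 (mitochondrial). Of the 21 members at 100 FPKM or more, 9 were lower and 3 higher with quantile normalization (median -0.14). With the length trend removed 10 of them were lower and 1 higher (median -0.21).

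**Figure D2:**
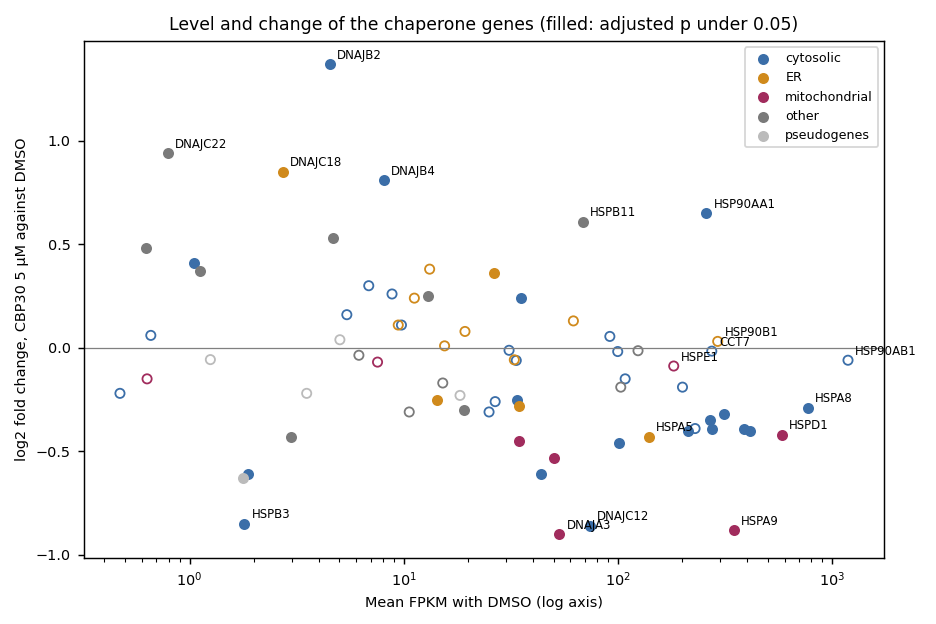
Mean FPKM of each chaperone gene with DMSO (x axis, log scale) against its log2 difference between CBP30 at 5 µM and DMSO (y axis), coloured by compartment, with filled points for an adjusted p under 0.05. Among the genes at 100 FPKM or more only HSP90AA1 is filled above 0, and HSPA9 is the lowest at -0.88.

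The mitochondrial Hsp70 and its J-domain partner had the largest falls of the list on the log2(FPKM + 1) scale, with DNAJC12 (-0.86) and HSPB3 (-0.85) close behind. As a percent of the DMSO mean, the low genes HSPB3 (31.2%), HSP90AB4P (43.9%) and DNAJB7 (46.8%) fell further than HSPA9 (54.2%) and DNAJA3 (52.5%). HSPA9 (mortalin, the matrix Hsp70 that drives protein import; chr5:137889445-137911364, minus strand, hg19) was at 341 and 352 FPKM with DMSO, 275 and 274 with CBP30 at 2 µM, 189 and 187 with CBP30 at 5 µM, 322 and 334 with I-CBP112 at 2 µM and 309 and 312 with I-CBP112 at 5 µM. Every treated sample was below both DMSO samples, and the CBP30 samples at 5 µM were the lowest. The fall was 0.88 ± 0.0483 (log2, SE) at 5 µM CBP30 (log2 difference -0.88, limma adjusted p = 2.13e-05) and was called at 2 µM CBP30 as well (-0.34, adjusted p = 0.0028). DNAJA3, the J-domain partner of HSPA9 in the matrix (chr16:4475806-4506776, plus strand, hg19), followed the same order of samples. It stood at 53.5 and 53.2 FPKM with DMSO, 35.0 and 34.7 with CBP30 at 2 µM, 28.0 and 28.0 with CBP30 at 5 µM, 46.9 and 47.1 with I-CBP112 at 2 µM and 42.9 and 40.8 with I-CBP112 at 5 µM, with no overlap between DMSO and any treatment. Its log2 difference was -0.90 ± 0.0429 with CBP30 at 5 µM (limma adjusted p = 1.29e-05), -0.60 with CBP30 at 2 µM and -0.34 with I-CBP112 at 5 µM (adjusted p = 0.0056). DNAJC11, a J-domain protein of the complex that shapes the cristae, was likewise lower in those 3 groups (-0.53, -0.35 and -0.30). DNAJC19, of the inner membrane import motor, was lower at 5 µM CBP30 (-0.45 ± 0.0776, adjusted p = 0.00281) and stood at -0.07 with CBP30 at 2 µM.

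The matrix chaperonin is built from HSPD1 (Hsp60), which forms the folding chamber, and HSPE1 (Hsp10), its lid. HSPD1 was at 565 and 599 FPKM with DMSO, 603 and 556 with CBP30 at 2 µM, 428 and 444 with CBP30 at 5 µM, 533 and 568 with I-CBP112 at 2 µM and 557 and 561 with I-CBP112 at 5 µM. The samples with 5 µM CBP30 alone lay below all others, and HSPD1 fell by 0.42 on the log2 scale there (-0.42 ± 0.068, limma adjusted p = 0.00235). HSPE1, on the other side of the shared promoter printed above, was at 181 and 183 FPKM with DMSO and at 166 and 177 with 5 µM CBP30 (log2 difference -0.09, 95% interval -0.41 to 0.24, adjusted p = 0.634). The difference between the changes of HSPD1 and HSPE1 was not tested. The ratio of HSPD1 to HSPE1 was 3.12 and 3.27 with DMSO and 2.58 and 2.51 with CBP30 at 5 µM. HSPE1 has a short transcript (570 bases), and it was at 249 and 179 FPKM in the CBP30 samples at 2 µM, the first of which is the library that stands apart in its length trend (below). DNAJC15 and DNAJC30, the remaining mitochondrial members, stood at -0.15 and -0.07 and were not called.

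In the ER the pattern was mixed, with the main Hsp70 lower and the main Hsp90 not called. HSPA5 (BiP, the ER Hsp70 and sensor partner of the unfolded protein response; chr9:127997132-128003661, minus strand, hg19) was at 133 and 144 FPKM with DMSO, 142 and 135 with CBP30 at 2 µM, 102 and 103 with CBP30 at 5 µM, 135 and 147 with I-CBP112 at 2 µM and 137 and 137 with I-CBP112 at 5 µM. Only the 5 µM CBP30 samples left the range of DMSO on the low side, with a log2 difference of -0.43 ± 0.063 (limma adjusted p = 0.00136). HSP90B1 (GRP94), the other gene with the ER stress element, was at 289 and 295 FPKM with DMSO, 350 and 347 with CBP30 at 2 µM and 293 and 304 with CBP30 at 5 µM. It was thus higher at 2 µM CBP30 (log2 difference 0.25, adjusted p = 0.015), while at 5 µM the difference was 0.03 (95% interval -0.10 to 0.16). DNAJB11 and DNAJB12, J-domain proteins of the ER lumen and membrane, were lower at 5 µM CBP30 (-0.28 and -0.25). DNAJC18, an ER membrane J-domain protein at 2.67 and 2.8 FPKM with DMSO, was higher at 5.84 and 5.58 FPKM with CBP30 at 5 µM (0.85 ± 0.0806, adjusted p = 0.000216), and was also called higher with CBP30 at 2 µM (0.65) and I-CBP112 at 5 µM (0.53). HSPA13, an Hsp70 of microsomes, was called higher with CBP30 at 5 µM (0.36, adjusted p = 0.0153), a call lost on leaving out either DMSO sample or either 5 µM CBP30 sample. DNAJB9, a co-chaperone induced by ER stress, stood at 0.01 with CBP30 at 5 µM and was higher at 2 µM (0.32, adjusted p = 0.006), and DNAJC3, an inhibitor of the stress kinase PERK, was called in neither (0.24 and 0.09).

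**Figure D3:**
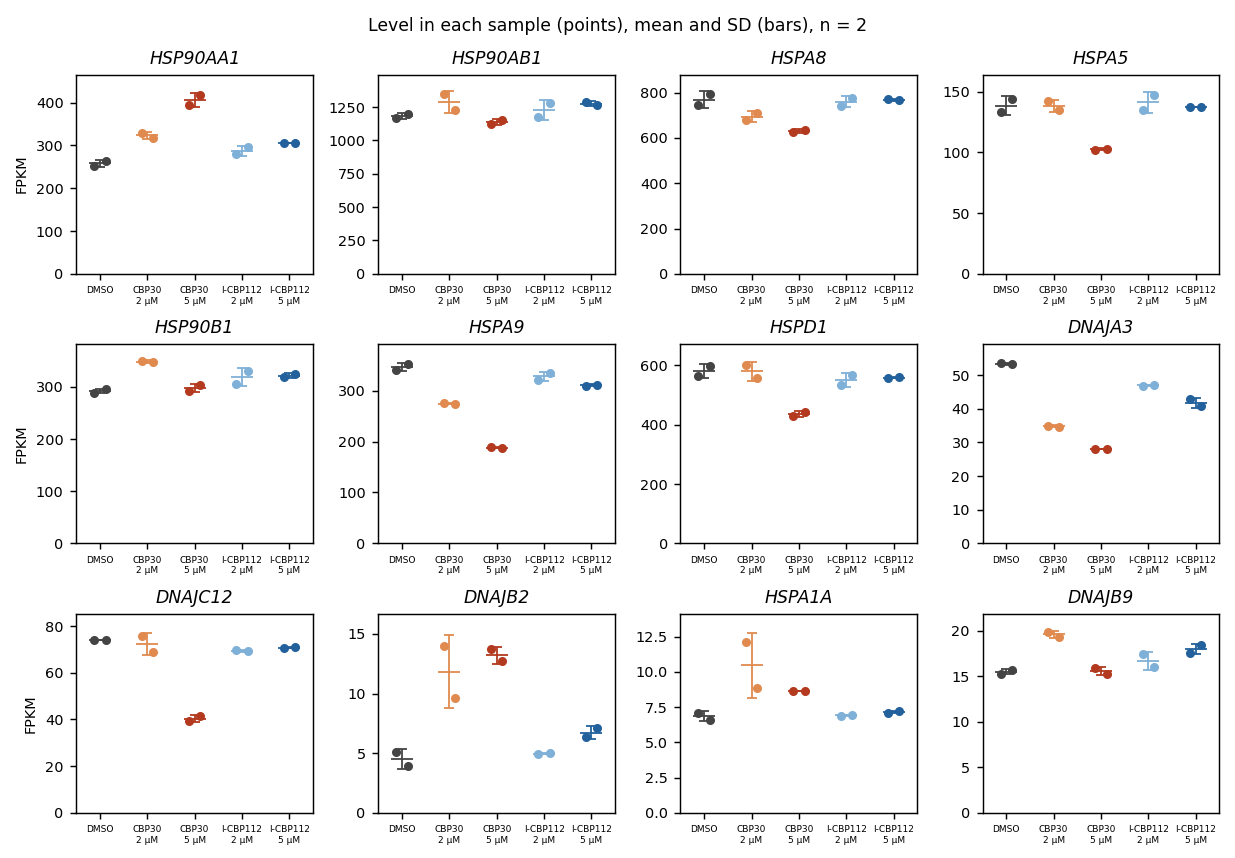
FPKM of 12 chaperone genes (y axes from 0) in each of the 10 samples (points), with the mean and SD of the 2 replicates (bars), for DMSO, CBP30 and I-CBP112 in turn on the x axis. HSPA9 and DNAJA3 fall from DMSO through 2 to 5 µM CBP30, HSP90AA1 rises in the same order (252 and 264 to 395 and 418 FPKM), and HSPD1, HSPA5 and DNAJC12 are low at 5 µM CBP30 alone.

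Among the cytosolic members the Hsp90 pair diverged. HSP90AA1, the stress-inducible Hsp90 (chr14:102547079-102606036, minus strand, hg19), was at 252 and 264 FPKM with DMSO, 329 and 318 with CBP30 at 2 µM, 395 and 418 with CBP30 at 5 µM, 279 and 296 with I-CBP112 at 2 µM and 307 and 307 with I-CBP112 at 5 µM. All 8 treated samples were above both DMSO samples. The log2 difference was 0.65 ± 0.0581 at 5 µM CBP30 (limma adjusted p = 0.000157), 0.32 at 2 µM CBP30 (adjusted p = 0.0066), 0.25 at 5 µM I-CBP112 (adjusted p = 0.048) and 0.16 at 2 µM I-CBP112 (adjusted p = 0.28). HSP90AB1, the constitutive Hsp90 and the most abundant member per length, was at 1170 and 1200 FPKM with DMSO and 1122 and 1152 with CBP30 at 5 µM (-0.06, 95% interval -0.24 to 0.12). Under quantile normalization it was called higher at 5 µM CBP30 instead. The ratio of HSP90AA1 to HSP90AB1 within a sample, which does not depend on a common scaling factor, was 0.215 and 0.22 with DMSO, 0.244 and 0.259 with CBP30 at 2 µM, 0.352 and 0.363 with CBP30 at 5 µM, 0.238 and 0.231 with I-CBP112 at 2 µM and 0.238 and 0.243 with I-CBP112 at 5 µM. The pair and the pseudogenes HSP90AB2P, HSP90AB3P and HSP90AB4P share sequence, so that short reads may be divided between them, and the strand setting of the counting is not given in the sources used here.

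Of the 6 cytosolic Hsp70 genes, 2 were lower at 5 µM CBP30 and 0 higher. HSPA8, the constitutive Hsp70, was at 744 and 795 FPKM with DMSO and at 624 and 636 with CBP30 at 5 µM (-0.29 ± 0.0638, limma adjusted p = 0.00875). The groups did not overlap, but the call was lost without the second DMSO sample, without the first CBP30 sample, after removal of the length trend and under quantile normalization. The stress-inducible HSPA1A and HSPA1B, neighbouring and nearly identical genes whose reads cannot be assigned with certainty, were low in these cells, at 7.11 and 6.61 and at 5.55 and 5.3 FPKM with DMSO. They were called higher with CBP30 at 2 µM (0.53 and 0.55, and 0.33 and 0.38 without the library that stands apart, still called). With CBP30 at 5 µM HSPA1A was at 8.67 and 8.64 FPKM (0.30, adjusted p = 0.082) and HSPA1B at 6.21 and 6.09 FPKM (0.16, adjusted p = 0.32), and both were called higher there once the length trend was removed. HSPA4 and HSPH1, Hsp110 proteins that exchange the nucleotide of Hsp70, stood at -0.02 (95% interval -0.15 to 0.11) and -0.01 (-0.15 to 0.13). HSPA14 and DNAJC2, which together form the chaperone that sits on the ribosome, were both lower with CBP30 at 5 µM (-0.25 ± 0.0593, adjusted p = 0.0112, and -0.61 ± 0.0534, adjusted p = 0.000144). DNAJC2 was at 42.6 and 44.5 FPKM with DMSO, 33.8 and 36.6 with CBP30 at 2 µM and 28.3 and 27.9 with CBP30 at 5 µM, with no overlap among these groups, whereas the call of HSPA14 was lost without the second DMSO sample, without the second CBP30 sample and under both of the settings that ended that of HSPA8.

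Of the 12 cytosolic J-domain genes, 4 were lower with CBP30 at 5 µM and 3 higher (33.3% and 25%, near the 25.4% and 21.2% of all genes). DNAJC12, a co-chaperone of the aromatic amino acid hydroxylases, was at 74.1 and 74.1 FPKM with DMSO, 75.7 and 68.9 with CBP30 at 2 µM and 39.4 and 41.4 with CBP30 at 5 µM, against 69.2 to 70.9 with I-CBP112. Only 5 µM CBP30 stood clearly apart (-0.86 ± 0.0557, limma adjusted p = 4.22e-05). DNAJC7, which carries substrates between Hsp70 and Hsp90, was lower at 5 µM as well (-0.46 ± 0.0681, adjusted p = 0.00142) and not called at 2 µM (0.06). In the other direction DNAJB2, a J-domain protein with ubiquitin-binding motifs, went from 5.11 and 3.92 FPKM with DMSO to 14.0 and 9.66 with CBP30 at 2 µM and 13.7 and 12.7 with CBP30 at 5 µM. This was the largest rise of the list on the log2(FPKM + 1) scale (1.37 ± 0.169, adjusted p = 0.000642, and 1.21 at 2 µM), while as a percent of the DMSO mean DNAJC22 (309%) exceeded DNAJB2 (292%). DNAJB4, related to DNAJB1, rose at 5 µM (6.78 and 9.41 to 13.9 and 15.8 FPKM, 0.81, adjusted p = 0.00278), and DNAJB1, the main Hsp40 partner of Hsp70 in the heat shock response, was at 35.7 and 35.2 FPKM with DMSO, 45.7 and 43.3 with CBP30 at 2 µM and 40.9 and 43.4 with CBP30 at 5 µM. DNAJB1 was called higher at both concentrations (0.32 and 0.24), with the call at 5 µM lost without either DMSO sample or without the second 5 µM sample. DNAJA1, an abundant type A J-domain protein, stood at -0.15 (adjusted p = 0.076) at 5 µM.

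The small heat shock proteins HSPB1 and HSPB3 gave values of unlike weight. HSPB1 was at 237 and 220 FPKM with DMSO and 175 and 172 with CBP30 at 5 µM, yet it was not called (-0.39, 95% interval -0.84 to 0.06). Its CBP30 samples at 2 µM were at 349 and 216 FPKM, and without either of these HSPB1 was called lower at 5 µM. HSPB3 lay near the minimum, at 1.89 and 1.72 FPKM with DMSO and 0.377 and 0.747 with CBP30 at 5 µM (-0.85, adjusted p = 0.00434). Outside the named compartments, HSPB11, which despite its symbol is a subunit of the intraflagellar transport machinery, was higher at 5 µM CBP30 (68.6 and 68.6 to 104 and 106 FPKM, 0.61, adjusted p = 0.00595). DNAJC13, an endosomal J-domain protein, and DNAJC5, of secretory vesicles, were called higher (0.53 and 0.25), and DNAJC21, which acts in ribosome biogenesis, lower (-0.30, adjusted p = 0.005). The call of DNAJC13 was lost without the filter on low values and without any single DMSO, 5 µM CBP30 or I-CBP112 sample, and that of DNAJC5 with the length trend removed, without the first DMSO sample and without the first 5 µM CBP30 sample.

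TRiC is a ring-shaped complex of 8 different subunits that folds actin and tubulin among others. With CBP30 at 5 µM, 6 of the 8 were lower and 0 higher (CCT2 -0.32, CCT3 -0.39, CCT4 -0.35, CCT5 -0.39, CCT6A -0.40 and CCT8 -0.40), with a median of -0.37. Beside this, 25.4% of all genes were lower, and 42.1% of those at 100 FPKM or more with DMSO, a level that all 8 subunits exceeded (median of those genes -0.22). Each of the 6 had both samples below both DMSO samples. CCT8, the most abundant subunit per length, was at 402 and 424 FPKM with DMSO, 465 and 412 with CBP30 at 2 µM, 311 and 317 with CBP30 at 5 µM, 375 and 405 with I-CBP112 at 2 µM and 410 and 394 with I-CBP112 at 5 µM. TCP1 was at 196 and 205 FPKM with DMSO and 171 and 180 with CBP30 at 5 µM (-0.19, 95% interval -0.36 to -0.02, adjusted p = 0.068). CCT7 was the exception, at 274 and 274 FPKM with DMSO and 268 and 273 with CBP30 at 5 µM (-0.02, interval -0.23 to 0.20). Under quantile normalization 5 subunits were lower, CCT2 lost its call and CCT7 was called higher (median -0.23). With the length trend removed 6 were lower and 0 higher (median -0.26). The summed FPKM of the 8 was 2299 and 2378 with DMSO and 1860 and 1905 with CBP30 at 5 µM, 80.5% of the DMSO mean. None of the 8 was called with CBP30 at 2 µM or with I-CBP112, but at 2 µM CBP30 3 were called lower with the length trend removed, 2 with quantile normalization and 1 without the sample that stands apart. CCT6B, a testis-type relative of CCT6A that was not counted among the 8, was at 0.955 and 1.14 FPKM with DMSO and 1.73 and 1.7 with CBP30 at 5 µM. CCT6A shares sequence with the pseudogenes CCT6P1 and CCT6P3, which were at 2.68 to 5.51 FPKM with CBP30 at 5 µM.

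**Figure D4:**
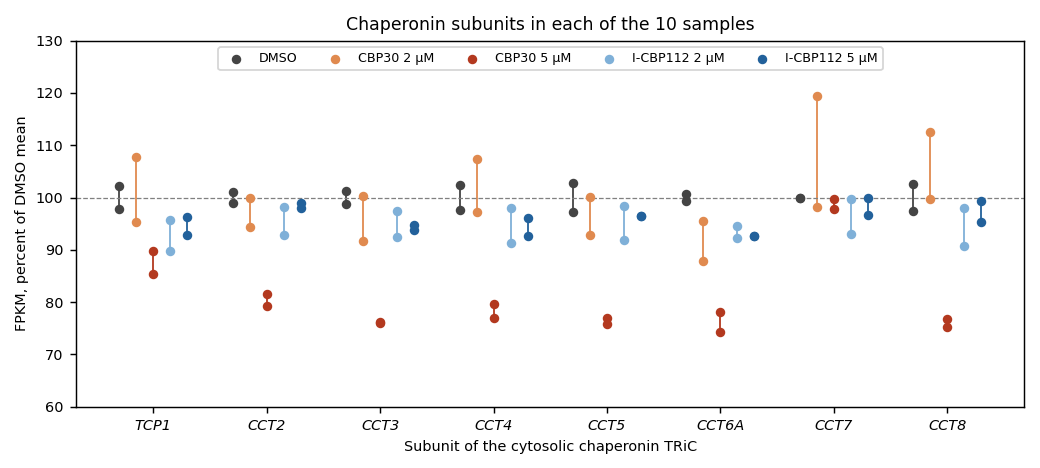
FPKM of the 8 TRiC subunits as a percent of each gene's DMSO mean (y axis, starting at 60) in the 10 samples, where each point is a sample and a line joins the replicates. The CBP30 samples at 5 µM lie below all others for CCT2, CCT3, CCT4, CCT5, CCT6A and CCT8, near 80.3% for CCT2, and within the range of the others for CCT7.

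With CBP30 at 2 µM, 8 members were lower and 13 higher (10.8% and 17.6%, beside 16.3% and 15.9% among all genes tested). Both samples lay below both DMSO samples for 15 members and above for 27 (30.5% and 31.4% of all genes). The first CBP30 sample at 2 µM stood apart from the rest: its ratio to the mean of all samples fell with transcript length (Spearman rho -0.579 across genes, against -0.049 for the second and 0.329 to 0.330 with CBP30 at 5 µM). Leaving it out gave 9 lower and 16 higher, and 19 of the 21 calls were shared, those of HSPA6 and HSPBAP1 being lost. The lone sample of that group is then assumed to vary like the other groups. Without the second CBP30 sample the counts were 16 and 26, without the first or second DMSO sample 4 and 6 were higher, without the second DMSO sample 5 were lower, and a fit to these 4 samples alone, with few degrees of freedom, called 1 lower and 0 higher. By compartment the counts were 3 lower and 7 higher of 35 cytosolic genes, 1 and 4 of 13 ER genes, and 3 and 0 of 8 mitochondrial genes. HSPA9 and DNAJA3 had the same log2 differences with and without it (-0.34 and -0.60).

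CBP30 at 5 µM was set directly against 2 µM. This comparison shares no DMSO samples. Here 29 members were lower at 5 µM and 7 higher (39.2% and 9.46%, beside 21.3% and 17.6% of all genes, 38.9% in either direction). Among all 900 genes of at least 100 FPKM, 49.2% were lower and 4.67% higher. With the length trend removed 22 members were lower and 8 higher, and 11 of the 36 calls were lost and 5 gained. Under quantile normalization 22 were lower and 11 higher. The median log2 difference of the members was -0.18, and -0.075 and -0.072 under these 2 settings. Without the sample that stands apart the counts were 27 and 7. In all 12 and 10 members were called without the first or second 5 µM sample, and 0 in a fit to the 4 CBP30 samples alone. DNAJC12 had the largest fall (-0.82, limma adjusted p = 0.000416), followed among members at 5 FPKM or more that kept their call without that sample by HSPB1 (-0.66, and -0.31 without it), HSPA9 (-0.54), DNAJC7 (-0.52), DNAJC17 (-0.52, and -0.27 without it), CCT8 (-0.48), HSPA5 (-0.43) and HSPD1 (-0.41). Without it HSPB1 and DNAJC17 were both behind HSPD1 (-0.35). On the high side the largest rises were those of DNAJC13 (0.74, and 0.46 without that sample), DNAJC27 (0.50 and 0.41), DNAJC22 (0.48 and 0.40) and DNAJC16 (0.46 and 0.28). HSP90AA1 was also higher at 5 than at 2 µM (0.33, adjusted p = 0.00789). DNAJB2 gave 0.16 between the concentrations, and 0.41 without the sample that stands apart, and DNAJB1 gave -0.08. None of these was called.

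With I-CBP112 at 5 µM, 3 members were lower and 3 higher (3.28% and 3.84% of all genes were called, 7.12% in either direction). Both samples lay below both DMSO samples for 25 members and above for 22 (33.7% and 30.5% of all genes). They were DNAJA3, DNAJC11 and DNAJB7 on the low side and HSP90AA1, DNAJC18 and DNAJC22 on the high side. DNAJB7 and DNAJC22, genes at 0.75 to 2.05 FPKM with DMSO, lie close to the minimum. These counts rest on single samples: they came to 7 lower and 9 higher without either CBP30 sample at 2 µM, and to 0 or 1 in each direction without either 5 µM sample of either compound, either I-CBP112 sample at 2 µM or the first DMSO sample. Without the second DMSO sample 0 were higher. With I-CBP112 at 2 µM no member passed the adjusted threshold in limma, the only tool run, and 7 had an unadjusted p under 0.05 (3 lower, 4 higher), namely CCT6B, DNAJA3, DNAJB7, DNAJC11, DNAJC18, DNAJC22 and HSP90AA1. In this comparison 0.735% of all genes were called lower and 0.868% higher, 1.6% in either direction, 23 members lay below and 17 above both DMSO samples in both replicates (28.3% and 25% of all genes), and without either CBP30 sample at 2 µM 4 members were lower and 1 higher. All 4 treatments were compared with the same DMSO samples, so the recurrence of names across them is not independent.

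At 5 µM, CBP30 and I-CBP112 were compared with each other, without DMSO. CBP30 gave the lower value for 23 members and the higher for 7 (31.1% and 9.46%, beside 17.9% and 13.6% of all genes, 31.4% in either direction). Among named members that reached 5 FPKM in the higher of the groups compared, the largest differences were the following. DNAJC12 (-0.80 ± 0.0557), HSPA9 (-0.72 ± 0.0483), DNAJA3 (-0.56 ± 0.0429) and DNAJC2 (-0.46 ± 0.0534) were on the low side. DNAJB2 (0.88 ± 0.169), DNAJC13 (0.65), DNAJB4 (0.63) and HSP90AA1 (0.40 ± 0.0581) were on the high side. HSPB3, which stayed under 5 FPKM, was further down with CBP30 than any of these. HSPA5, HSPD1, HSPA8 and 6 TRiC subunits were also lower with CBP30. For HSP90AB1 the difference was -0.17 (95% interval -0.35 to 0.01), for HSPA4 0.01 (-0.11 to 0.14) and for CCT7 0.01 (-0.21 to 0.22), none of which was called. The higher count of 7 was 12 with the length trend removed, 13 with quantile normalization and 14 without the CBP30 sample at 2 µM that stands apart (lower counts 21, 20 and 30). The total of 30 came to 11 or 15 on leaving out one of the 4 samples compared. At 2 µM the compounds differed for 4 members on the low side of CBP30 and 6 on the high side (8.45% and 7.13% of all genes, 15.6% in either direction). DNAJC6 (-0.51), DNAJA3 (-0.42), DNAJC2 (-0.27) and HSPA9 (-0.26) were lower with CBP30. DNAJB2 (1.09), HSPA1A (0.52), HSPB11 (0.48), DNAJB1 (0.30), DNAJC18 (0.30) and DNAJB9 (0.22) were higher. Without the sample that stands apart all kept their direction, with DNAJC6 at -0.30, DNAJB2 at 0.84, HSPA1A at 0.31, HSPB11 at 0.26 and DNAJB9 at 0.20. With the length trend removed the call of DNAJB9 was lost and 7 others were gained. The total of 10 came to 38 without the second CBP30 sample, to 1 without either I-CBP112 sample at 2 µM and to 5 without any single DMSO sample or any single 5 µM sample of either compound.

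Other genes of protein folding were followed in 6 lists of 71 genes, all tested. With CBP30 at 5 µM, 26 of them were lower and 14 higher (36.6% and 19.7%), the latter 7 without the first DMSO sample and 8 or 7 without the first or second 5 µM CBP30 sample. Among all genes tested the shares were 25.4% lower and 21.2% higher, to which the counts of the single lists below at 5 µM CBP30 also compare. Mitochondrial cofactors and proteases showed 7 lower and 1 higher of 12, with a median of -0.43. LONP1, the matrix protease that clears misfolded proteins, was at 187 and 174 FPKM with DMSO, 159 and 132 with CBP30 at 2 µM and 63.8 and 62.7 with CBP30 at 5 µM (-1.50 ± 0.0914, limma adjusted p = 3.33e-05). TRAP1, the mitochondrial Hsp90, fell from 197 and 191 to 109 and 110 FPKM (-0.81 ± 0.102, adjusted p = 0.000699), and GRPEL1, the nucleotide exchange factor of HSPA9, fell as well (-0.74). SPG7, of an inner membrane protease, was the gene that rose (0.29).

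Of the heat shock factors, HSF1, the main activator of the heat shock response, was at 48.1 and 47.0 FPKM with DMSO and 33.1 and 32.0 with CBP30 at 5 µM (-0.53 ± 0.0774, limma adjusted p = 0.00135), while HSF2 (0.18) and HSBP1 (0.30), an inhibitor of HSF1, were higher. The cofactors of cytosolic Hsp70 and Hsp90 had 7 lower and 4 higher of 21, with FKBP4 (-0.90) and BAG2 (-0.66) lowest and UNC45A (0.48), a myosin chaperone, highest. FKBP4 and BAG2 were the 2 companion genes called with I-CBP112 at 5 µM (-0.48 and -0.25). They are 2.82% of the companion genes, beside 3.28% of all genes called lower there. Prefoldin feeds substrates to TRiC. Of the 9 prefoldin and chaperonin helpers, 3 were lower (PFDN2, PFDN4 and PFDN6) and 2 higher (PFDN1 and PDCL). ER folding factors gave 3 lower and 4 higher of 18 with CBP30 at 5 µM. At 2 µM CBP30 2 were lower and 8 higher, beside 16.3% and 15.9% of all genes. Among the higher were MANF (0.57), CRELD2 (0.61) and CALR (0.39). Without the sample that stands apart the counts at 2 µM were 3 and 9, the values of these genes 0.35, 0.39 and 0.30, and the median of the list 0.17 in place of 0.32. The regulators of the unfolded protein response had 5 lower and 1 higher of 7 at 5 µM CBP30, with DDIT3 (-0.65), ATF4 (-0.51), ATF6 (-0.49) and XBP1 (-0.47) among the lower and EIF2AK3, which encodes PERK, the higher (0.35).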

How the data were processed

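K562 cells were treated for 48 h and poly(A)+ RNA was made into stranded libraries and sequenced as single reads. Per the labels, the authors aligned reads to hg19 and deposited one table of FPKM values, and the submitters' processing notes name FastQC, TopHat2 2.0.10, Bowtie 1.0.0, SAMtools 0.1.19, Cufflinks 2.2.1 and Cuffnorm. The annotation release, read counts and depth are not given in the sources used here, so the precision set by counting is unknown.

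Values were transformed to log2(FPKM + 1), and the 12788 of 23284 genes averaging 0.5 FPKM or more were fitted in limma 3.58.1 (R 4.3.3) with all 5 groups of 2 samples, a mean-variance trend and Benjamini-Hochberg adjustment over all genes at 0.05. Intervals are 95% and unadjusted for the number of genes. The script was tested on simulated data. Groups came from the sample labels. A further marker gene is not reported here. What the labels call biological replicates may share a culture origin, and p-values measure only the spread between these samples. Transcript lengths and hg19 positions were from GENCODE v44lift37, promoters from RefSeq GRCh38.p14. The named genes were the core members fixed by role, the largest called falls and rises per compartment at 5 µM CBP30 among genes that reached 5 FPKM in the higher of the groups compared, and the largest differences between concentrations and compounds. DNAJB7, DNAJC22, HSPB3, CCT6B, HSPA13, HSPA14, DNAJC17 and the other members outside that rule were named after their values were seen. The members and lists were chosen with earlier results of these data known. Alternatives covered the pseudocount, filter, scaling, variance trend, samples fitted, replicate block, length trend and each sample left out.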

Additional observations from a re-analysis of the deposited data

How the results depend on the processing

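For the 164 results of 41 named genes, all alternatives other than leaving out a sample gave 1632 values. Of these, 1570 were called in the same direction in both fits or were called in neither, whatever their direction. The call was lost in 26 and gained in 34. Fitting only the groups compared, which does not use all samples, gave 13 of the lost and 9 of the gained calls. The other 2 values reversed direction, with a call in either fit. The reversals were those of HSP90AB1 (0.17) and CCT7 (0.15) under quantile normalization, at 5 µM CBP30 against DMSO. The cause was not tested. Among counts of chaperone genes at 5 µM CBP30, the lower count stayed within 1.5 times of 24, and the higher count of 13 was 8 with a minimum of 5 FPKM. Fitting only the groups compared leaves few degrees of freedom and gave 1 lower and 0 higher for CBP30 at 2 µM, 6 higher for I-CBP112 at 5 µM, 0 for the 2 concentrations of CBP30, 46 for the compounds at 5 µM and 0 for the compounds at 2 µM. Removal of the length trend, with or without a replicate block, gave 13 lower for CBP30 at 2 µM, 5 higher for I-CBP112 at 5 µM, 1 higher for I-CBP112 at 2 µM and 16 for the compounds at 2 µM. Without the filter, and likewise with every matching gene above 0, 1 was higher for I-CBP112 at 5 µM and 6 differed between compounds at 2 µM, and with a minimum of 5 FPKM 0 were higher for I-CBP112 at 5 µM. The cytosolic median of -0.19 at 5 µM CBP30 was -0.10 with quantile normalization, -0.092 without the length trend (with the block too) and -0.061 over all matching genes. The ER median of 0.079 was 0.14 with quantile normalization, and the mitochondrial median of -0.43 was -0.33 with quantile normalization and -0.34 without the length trend (with the block too).

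Leaving out each sample in turn gave, against DMSO, 22 to 32 lower and 6 to 19 higher for CBP30 at 5 µM, 5 to 16 lower and 4 to 26 higher for CBP30 at 2 µM, 0 to 7 lower and 0 to 9 higher for I-CBP112 at 5 µM, and 0 to 4 lower and 0 to 1 higher for I-CBP112 at 2 µM. It gave 10 to 52 members between CBP30 concentrations, 11 to 44 between compounds at 5 µM and 1 to 38 at 2 µM, and 20 to 39 lower and 7 to 15 higher companion genes. The medians ranged from -0.22 to -0.15 (cytosolic), 0.053 to 0.10 (ER) and -0.45 to -0.42 (mitochondrial). Replicate numbers were not shown to pair samples (correlations of same-numbered deviations -0.0681 to 0.0939). A replicate block gave 24 lower and 12 higher at 5 µM CBP30 and 1 higher for I-CBP112 at 5 µM. With 2 samples a group and no read counts, members at a few FPKM have the least certain values.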
